A study of Mus musculus with 12 samples.

Results

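Alveolar type 2 (AT2) cells sorted from the lung were compared with whole lung tissue taken from next to spontaneous lung tumours, to describe which genes were enriched by the sort, which were depleted by it, and what traces of other cell types remained. The study deposited 12 bulk RNA-seq libraries of C57BL/6 mice, and 6 of them enter this comparison, 3 in each group. The AT2 libraries came from mice 175, 179 and 191, aged 6 months, as epithelial cells collected by flow cytometry; for the gate and its surface markers no source used here gives details. The adjacent lung libraries came from mice 102, 217 and 224, aged 18 months. All 6 mice carried a knockout of Med23, a Mediator subunit, that the labels place in T cells, so neither group is normal lung; the Cre line is not named in the labels. Libraries of 3 wild-type AT2 sorts (mice 176, 177 and 190, aged 6 months) are given alongside. Each library is numbered by its mouse. The groups were deposited in separate count tables, and table, age, sorting and tissue cannot be told apart, so the comparison is a description with no test. The rule was applied to 54186 gene identifiers shared by tables of 54532 and 56262, and 16542 genes had a mean of at least 1 CPM (counts per 1000000 counts of the library) in either group.

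The alveolus is lined by thin AT1 cells, across which gas is exchanged, and by cuboidal AT2 cells, which make surfactant. Surfactant is a mixture of lipids and the surfactant proteins SP-A, SP-B, SP-C and SP-D. AT2 cells assemble its lipid part in lamellar bodies, which are organelles related to lysosomes, and they also divide to renew themselves and to replace AT1 cells. A whole lung library adds endothelium, stroma, airway epithelium, blood and resident leukocytes to these cells. In bulk samples, fewer cells of a type and less RNA per cell cannot be told apart.

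Library depth on the shared genes was 15939263 to 18145085 counts in AT2 cells and 65105139 to 73683588 in adjacent lung. A total of 3 counts over the 3 libraries, the limit that a count of 0 allows, was 0.0589 CPM in AT2 cells and 0.0141 CPM in lung; these limits cover counting error only. The sorts resembled each other more than the tissues did: among genes of at least 10 CPM the median coefficient of variation was 6.81% in AT2 cells and 30.5% in lung. Lung mouse 102 was low in alveolar macrophage genes and high in endothelial genes, and heart muscle genes summed to 491, 44.5 and 226 CPM in lung mice 102, 217 and 224. The tables also differed by gene structure. The median log2 ratio of AT2 cells over lung was -0.45 over all genes, but -1.63 over the 1428 genes that share more than 50% of their 31-base words with another gene, and -2.40 over the 410 genes with more than 50% of their exon bases inside another gene. It went from -1.29 in the eighth of genes with the shortest exon length to 0.19 in that with the longest. Mitochondrial mt-Co2, with 100% of its words shared, was at 49.5, 26.6 and 14.6 CPM in AT2 cells and 1717, 2776 and 1239 in lung, whereas mt-Co1 was at 11362 and 10954 CPM on average. How reads were assigned to genes is not given in the sources used here, and its part in each ratio was not tested. Values of genes that share over 20% of their words or exon bases are therefore uncertain, and the shares are given beside them.

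**Figure D1:**
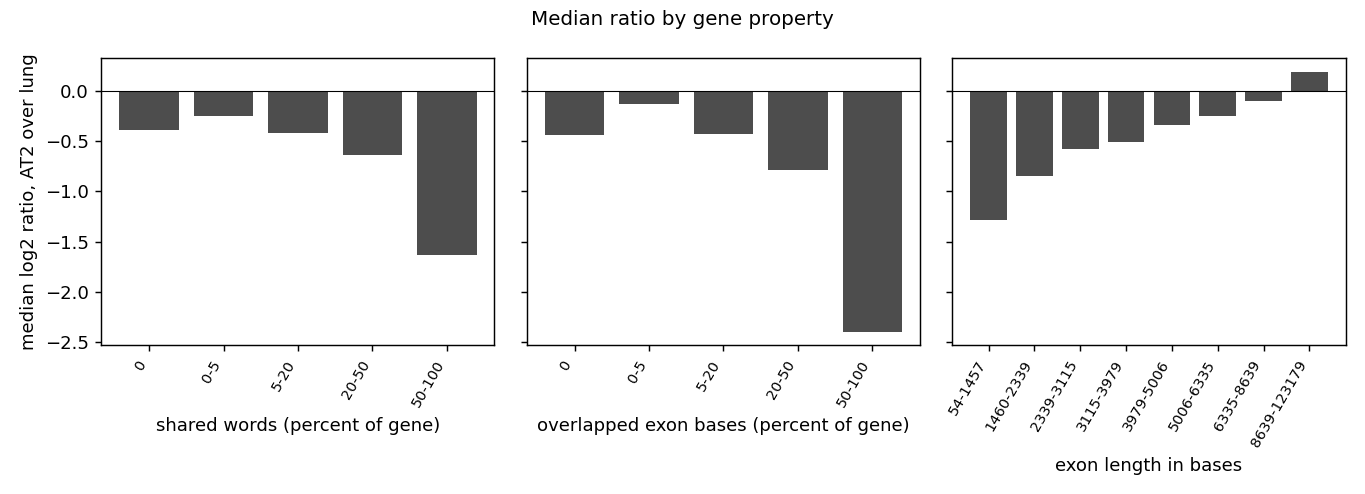
Median log2 ratio of mean CPM + 0.5, knockout AT2 cells over adjacent lung, in genes grouped by the percent of their 31-base words found in another gene, by the percent of exon bases overlapped by another gene, and by exon length in bases; bars start at 0. The medians are lowest for genes with over 50% shared words (-1.63) or overlapped bases (-2.40) and for the shortest genes (-1.29).

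The AT2 identity of the sort was read first from Sftpc (SP-C), Abca3 (the lipid pump of the lamellar body) and Lamp3 (a lamellar body membrane protein). Sftpc lies on the minus strand of GRCm38 at chr14:70520949-70524081, Abca3 on the plus strand at chr17:24351950-24410201 and Lamp3 on the minus strand at chr16:19653378-19706375. The promoters of Abca3, Lamp3 and a further surfactant gene, Sftpb (SP-B), are printed, chosen by name. The promoter set used here held none for Sftpc. The printed windows run from 250 bases before to 50 bases after the start of transcription in RefSeq's GRCm38.p6 annotation. Capitals mark matches to CTCAAG or CAAGTG (letters bound by NKX2 factors), TTNNGCAA (CEBP factors) or TGTTTAC (FOXA factors), searched on both strands, and the NKX2 words overlap by 4 letters when they follow each other. The words were chosen after the sequences were seen.
Sftpb, plus strand, chr6:72304360-72304659: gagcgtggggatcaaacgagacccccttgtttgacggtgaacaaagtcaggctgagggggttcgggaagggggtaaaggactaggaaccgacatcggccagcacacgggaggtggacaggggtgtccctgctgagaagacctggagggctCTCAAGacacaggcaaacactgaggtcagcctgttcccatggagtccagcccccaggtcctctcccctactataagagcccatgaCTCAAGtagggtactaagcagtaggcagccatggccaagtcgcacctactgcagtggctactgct
Abca3, plus strand, chr17:24351773-24352072: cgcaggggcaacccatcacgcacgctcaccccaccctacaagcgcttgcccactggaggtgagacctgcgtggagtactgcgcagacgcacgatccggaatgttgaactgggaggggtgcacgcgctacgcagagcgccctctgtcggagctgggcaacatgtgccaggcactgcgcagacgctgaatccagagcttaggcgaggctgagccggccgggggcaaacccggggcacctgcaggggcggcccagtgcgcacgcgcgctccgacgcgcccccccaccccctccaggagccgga
Lamp3, minus strand, chr16:19706316-19706615: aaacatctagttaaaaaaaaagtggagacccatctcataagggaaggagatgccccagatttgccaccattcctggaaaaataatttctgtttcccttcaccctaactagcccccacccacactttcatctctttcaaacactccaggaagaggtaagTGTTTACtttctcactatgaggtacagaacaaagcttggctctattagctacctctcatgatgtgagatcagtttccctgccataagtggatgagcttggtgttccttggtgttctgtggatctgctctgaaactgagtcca
The Sftpb promoter held CTCAAG at -100 and -15, the Lamp3 promoter held TGTTTAC at -92, and no word was found in the Abca3 window. Such matches are common, and are a description of letters only. Among genes with a mean of at least 1 CPM in either group, 11760 had a promoter in the table. CTCAAG was found in promoters of 17% of these, of 20.4% of the 348 matched higher genes and of 18% of the 2425 matched lower genes. The shares for CAAGTG were 13.7%, 19.3% and 15.6%, those for TTNNGCAA 10.6%, 16.4% and 12.9%, and those for TGTTTAC 3.21%, 3.45% and 3.84%. Of the 19 genes of the AT2 list below, 14 had a promoter in the table.

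All 3 markers were higher in every AT2 library than in any lung library. Sftpc was at 74745, 72319.6 and 74411 CPM in AT2 cells and at 14118, 31948 and 18435 in adjacent lung, a 3.43-fold difference in means with a log2 ratio of 1.78 ± 0.36 (SE, n = 3 per group). Abca3 was at 3928, 3860 and 3632 CPM against 472, 339 and 632, which is 7.92-fold higher. Lamp3 was at 4165, 4257 and 4217 CPM against 476, 459 and 476, which is 8.96-fold higher with a log2 ratio of 3.16 ± 0.02. Lamp3 thus had the tightest values of the markers, while Sftpc varied more than 2-fold among the lungs and missed the 4-fold line that was used to count genes; without lung mouse 217 its log2 ratio was 2.18. Per kb of exon, Sftpc reached 71398 ± 1271 CPM (SD, n = 3) in AT2 cells, Sftpb 12850 ± 454, Sftpa1 7003 ± 267, Lamp3 1255 ± 13.6, Sftpd 1014 ± 61.5 and Abca3 406 ± 16.5. Levels of neighbours in this order differed by more than their SDs.

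The wider AT2 list had 19 genes, of which 18 were in both tables. A gene was counted as higher or lower when the ratio of mean CPM + 0.5 was at least 4-fold and the groups did not overlap. By this rule 13 of the 18 were higher and none was lower, against 3.17% of all genes higher and 22.1% lower; these markers define the sorted cells, so the count describes the sort. All 18 were above lung without overlap, beside 3454 of all 16542 genes. Their log2 ratios ran from 0.95 (Sftpd) to 3.78 (Lyz1), with a median of 2.84, or 7.14-fold. Summed over the list, AT2 libraries held 172748 to 175689 CPM and lungs 26853 to 47020.4. The sort held 474% of the lung level.

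Among the secreted AT2 proteins, Sftpb was at 24299, 26038 and 25528 CPM in AT2 cells and 2864, 3557 and 4592 in lung, which is 6.89-fold higher. Sftpa1, which encodes SP-A, was at 19524, 19655 and 20908 CPM against 2483, 3365 and 3709. Both were thus about as enriched as Abca3. Sftpd, which encodes SP-D, had the smallest difference of the list, at 2434, 2310 and 2606 CPM against 722, 1756 and 1328. The chemokine Cxcl15 (7.40-fold), complement component Hc (9.19-fold) and lysozyme Lyz1 (13.8-fold, with 34.2% of its words shared) were also higher. Lyz2, the other lysozyme gene, was at 28950.5 and 12615 CPM on average, 2.30-fold, with 32.8% of its words shared. The phosphate carrier Slc34a2 (7.61-fold), the surfactant phosphatidylcholine enzyme Lpcat1 (9.56-fold) and the secreted protein Lgi3 (10.6-fold) completed the group of abundant, strongly enriched markers. The ETS factor Etv5 was 9.77-fold higher, with 32.3% of its words shared. The remaining members were Dram1 (6.80-fold), Pgc (14.9 and 2.74 CPM on average), Napsa (3.36-fold), S100g (2.80-fold) and Muc1 (2.18-fold), and the last 3 lay under the 4-fold line.

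**Figure D2:**
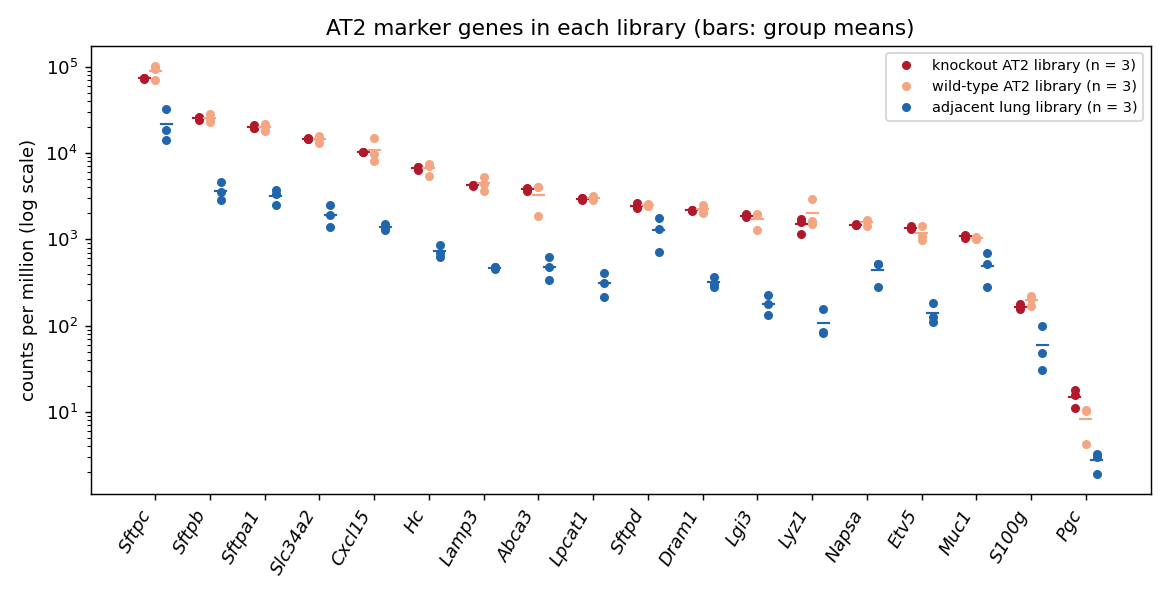
CPM (log scale) of the 18 measured AT2 list genes in each of 3 knockout AT2, 3 wild-type AT2 and 3 adjacent lung libraries; points are libraries and bars group means. Every knockout AT2 point lies above every adjacent lung point of the same gene, with the smallest separation for Sftpd.

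Across the 16542 genes, 525 (3.17%) were at least 4-fold higher in AT2 cells and 3654 (22.1%) at least 4-fold lower. These are the shares to set beside every list count below. The calls were uneven in size too: 29 genes were more than 16-fold higher and 1516 more than 16-fold lower. At any fold, 3454 genes lay above lung without overlap, 7532 lay below and 5556 overlapped. The higher genes held 20.6% of AT2 counts and 3.02% of lung counts, and the lower genes 1.25% and 27.1%. Of the lower genes, 562 had no count in any of the 3 AT2 libraries, and 185 of these share over 20% of their words or exon bases with another gene. With those shared genes left out, 480 genes were higher and 2755 lower. Just inside the 4-fold line lay Tent4b, Maob and Slc15a2 among higher genes and Mmd, Gdf15 and Ly75 among lower ones. Just outside lay Spry1, Pign and Tmem164, and Stx2, Otulinl and Galnt18.

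**Figure D3:**
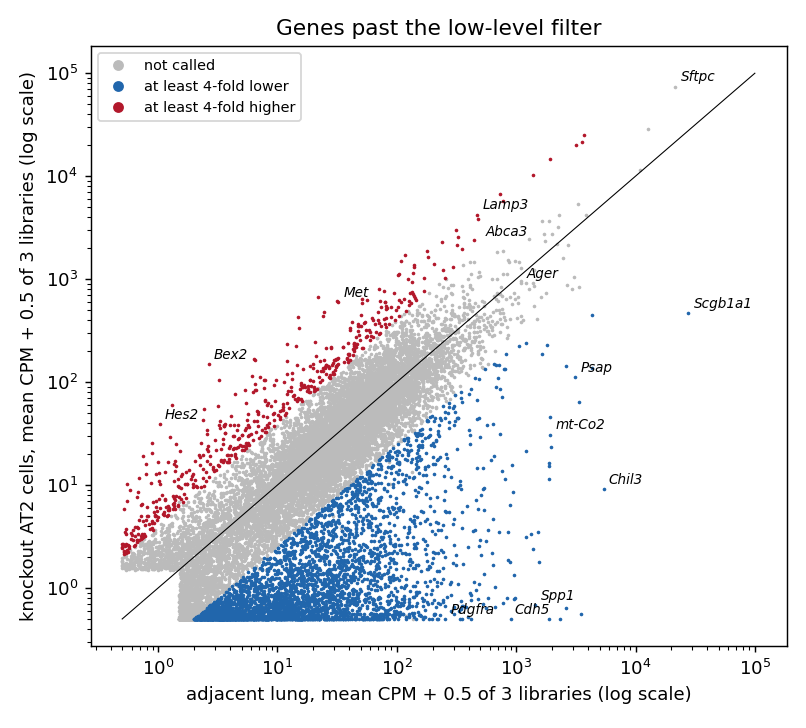
Mean CPM + 0.5 of each of 16542 genes in 3 knockout AT2 libraries against the mean in 3 adjacent lung libraries, both on log scales, with the line of equal levels; red points are the 525 higher genes and blue points the 3654 lower genes. The higher genes run close along the upper edge, whereas the lower genes spread down to the row of genes with no AT2 count.

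Genes of surfactant lipid synthesis and lamellar bodies had the highest median ratio of the 21 process lists. Of 26 genes, 12 were higher and 1 was lower, with a median log2 ratio of 1.66 against -0.45 over all genes. Among the 12 were Abca3, Lamp3, Lpcat1 and Slc34a2, which are also on the AT2 list, so the count partly describes the sort. Scd1, which desaturates fatty acids, was at 21473, 25186 and 17147 CPM in AT2 cells and 2315, 3945 and 4499 in lung, 5.93-fold higher. Fasn, the fatty acid synthase, was at 5905, 6243 and 5220 CPM against 552, 548 and 1203, 7.54-fold higher. For both enzymes every sort lay above every lung. Upstream in the same route, Acly, which makes cytosolic acetyl-CoA, was 6.75-fold higher and Acaca, which makes malonyl-CoA, 8.51-fold (56.8% of its words shared). Elovl1, a fatty acid elongase, was 9.05-fold higher, Gpam, the first acyltransferase of glycerolipid synthesis, 5.17-fold, and Srebf1, a transcription factor of lipid synthesis, 4.52-fold. The only lower member was Pcyt1b, an isoform of the rate-setting enzyme of phosphatidylcholine synthesis, with no count in the AT2 libraries and 4.57 CPM in lung, at least 77.7-fold lower.

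Cholesterol synthesis genes were shifted in the same direction, by less. Of 20 genes, 2 were called higher, among them Lss, lanosterol synthase (5.44-fold), and 1 lower. Yet 17 lay above lung without overlap, beside 3454 of all 16542 genes, and the median log2 ratio was 1.04. The lower member, Fdps, was at 10.9, 13.1 and 9.16 CPM against 52.4, 130 and 102, and 26.7% of its exon bases lie inside another gene. Among 22 lysosome genes the median log2 ratio was -0.85, with 1 higher and 7 lower, beside 3.17% and 22.1% of all genes. Atp6v0a1, a proton pump subunit, was 5.76-fold higher, at 399, 383 and 411 CPM against 57.7, 31.1 and 118. The protease gene Ctss (239-fold) and the acid lipase gene Lipa (171-fold) were lower. Psap, the saposin precursor, was at 126, 105 and 104 CPM in AT2 cells and 1126, 2890 and 5289 in lung, 27.8-fold lower, and none of its words are shared. Ctsd, an aspartic protease, was 31.7-fold lower, with 30.6% of its words and 34.4% of its exon bases shared. Npc2, a cholesterol carrier of the lysosome, lay on the other side, at 2722 and 1695 CPM on average. Psap, Ctsd and the summed alveolar macrophage markers, given below, were all lowest in lung mouse 102; the part of macrophages in these levels was not tested.

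Transcription factors of lung epithelium had a median log2 ratio of 1.62 over 20 genes. Of the 19 with a mean of at least 1 CPM in either group, 5 were higher and 2 lower. Besides Etv5 of the AT2 list, the higher genes included Tfcp2l1 (9.34-fold), Ehf (5.41-fold) and Elf5 (4.87-fold), which encode factors found in epithelia. Nkx2-1, the factor that specifies lung epithelium, was at 834, 791 and 837 CPM in AT2 cells and 231, 192 and 387 in lung, 3.04-fold. Foxa1 (3.58-fold), Cebpa (3.43-fold) and Foxa2 (3.30-fold), known regulators of surfactant genes, likewise lay above lung without overlap and under the 4-fold line. The lower genes belong to other epithelia: Hopx, an AT1 marker, was at 5.93, 6.94 and 7.15 CPM against 559, 523 and 297, and Sox2, an airway factor, was 16.4-fold lower. Of 24 genes of epithelial junctions and keratins, none was called higher and 3 were lower. Yet 18 were above lung without overlap, beside 3454 of all 16542 genes.

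The largest ratios among genes of at least 20 CPM in AT2 cells fell mostly outside the lists. Hes2, of the Hes family of transcriptional repressors, was at 44.7, 40.3 and 30.3 CPM in AT2 cells and 0.217, 0.353 and 1.01 in lung, 72.8-fold higher in means. Bex2, a small X-linked gene of the brain-expressed family, was at 178, 158 and 110 CPM against 4.23, 0.909 and 1.31, 69.4-fold, with 35.3% of its words shared. Abca17, a transporter gene of the Abca3 type, was at 26.8, 23.3 and 25.3 CPM against 0.136, 0.407 and 0.599, 66.0-fold. Abca17 lies at chr17:24264259-24351068 on the minus strand, next to and facing away from Abca3. These 3 genes were low in whole lung, although AT2 cells are part of it. Their lung means were 0.528 CPM for Hes2, 2.15 for Bex2 and 0.381 for Abca17. Wild-type AT2 libraries also expressed them, at 50.8 CPM for Hes2, 220 for Bex2 and 24.9 for Abca17 on average. Others were Tmem132d (38.3-fold), Cst8 (37.7-fold), Ahcyl2 (31.4-fold), the phosphoinositide phosphatase Inpp4b (28.7-fold), Fosb (27.1-fold), the non-coding RNA Snhg11 (23.1-fold), the slow myosin Myh7 (20.2-fold, 38.6% of words shared) and Ppp1r9a (19.9-fold). Of all higher genes, 37 had a ratio above that of Lyz1, the most enriched AT2 list gene, and 160 a ratio above the median of the AT2 list.

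Ion and water transport genes had members on both sides. Of 19 with a mean of at least 1 CPM in either group, 6 were higher, against 3.17% of all genes. Slc34a2, also on the AT2 list, was among these. In the lower direction were 4, near the 22.1% of all genes. The median log2 ratio over all 20 listed genes was 0.57. Cftr, the chloride channel mutated in cystic fibrosis, was at 85.5, 127 and 121 CPM in AT2 cells and 9.22, 3.88 and 7.004 in lung, 16.6-fold higher. Slc26a9, another chloride transporter, was 11.6-fold higher, the potassium channel subunit Kcne2 8.59-fold, the bicarbonate carrier Slc4a4 5.08-fold and the chloride importer Slc12a2 4.62-fold. The epithelial sodium channel subunits differed from these, with Scnn1g 14.4-fold and Scnn1b 4.74-fold lower, while Scnn1a overlapped between groups at 272 and 350 CPM on average. Water channels also split: Aqp1, found in capillaries, was 617-fold lower and Aqp4 133-fold lower, whereas Aqp5 was at 546, 558 and 522 CPM against 171, 89.4 and 201, 3.52-fold higher.

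Among 29 receptors for alveolar growth signals, 2 were higher and 9 lower, beside 3.17% and 22.1% of all genes. Met, the receptor of hepatocyte growth factor, was at 568, 611 and 601 CPM in AT2 cells and 29.9, 48.4 and 16.2 in lung, 18.8-fold higher. Fgfr2, the receptor of fibroblast growth factors that act on epithelium, was at 1229, 1119 and 1039 CPM against 111, 80.6 and 120, 10.9-fold higher. Acvrl1, an endothelial receptor, was 678-fold lower, and Pdgfra, a fibroblast receptor, had no count in the AT2 libraries. Of 31 signals made by alveolar epithelium, the gene called higher was Cxcl15, also on the AT2 list. The lower genes numbered 12. These counts stand beside 3.17% and 22.1% of all genes. Csf2, the growth factor of alveolar macrophages, was at 11.04, 10.47 and 10.1 CPM against 1.81, 2.90 and 2.41, above lung without overlap with a log2 ratio of 1.94. Il33, an alarmin, was 2.61-fold higher, also without overlap. Of 25 secreted defence genes 4 were higher, namely Lyz1, Sftpa1 and Hc, all on the AT2 list, and the chitinase Chia1 (11.5-fold). In the lower direction were 12. These counts too stand beside 3.17% and 22.1% of all genes.

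Immediate early genes, which respond to stimulation and also to tissue handling, had members on both sides. Of 26, 4 were higher, against 3.17% of all genes, and 5 were lower, near the 22.1% of all genes, with a median log2 ratio of -0.11. Fosb was at 167, 168 and 149 CPM in AT2 cells and 3.40, 6.43 and 8.08 in lung, 27.1-fold higher. Egr1 was 5.43-fold higher, Fos 5.18-fold and Nr4a1 4.09-fold. Klf2, also an endothelial factor, was at 6.88, 4.91 and 5.46 CPM against 402, 430 and 319, 66.7-fold lower. Of 16 heat shock genes 1 was lower, of 18 genes of the unfolded protein response 2 were lower, and none of either list was higher; the part of the sort in these levels was not tested. Of 20 proliferation genes 4 were lower, close to the 22.1% of all genes, with a median log2 ratio of -1.50. Below lung without overlap lay 11, beside 7532 of all 16542 genes. The 1 higher gene was the spindle checkpoint kinase Bub1, at 27.2, 27.4 and 28.7 CPM against 2.68, 3.05 and 3.18. Its fellow cycle gene Mki67 was at 9.49, 20.6 and 6.84 CPM against 17.3, 42.9 and 25.1.

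MHC class I and interferon genes lay mostly below lung, and MHC class II genes were closer to the lung level. MHC class I genes had a median log2 ratio of -2.18, with 8 of 12 lower and none higher. B2m, the light chain shared by class I molecules, was at 222, 232 and 230.5 CPM in AT2 cells and 1302, 2124 and 1996 in lung, 7.92-fold lower. The class I heavy chain H2-K1 overlapped between groups, at 960.3 and 1103 CPM on average with 20.7% of its words shared. MHC class II genes had a median of -0.72 beside -0.45 over all genes, with 3 of 11 lower, near the share of all genes. Of the 11, 5 lay below lung without overlap and 0 above, beside 7532 and 3454 of all 16542 genes. The count below was thus near the share of all genes. Their sum was at 103% of lung, but at 67.1% without Cd74, which made up 64.8% of the sum in the sort. The class II chaperone Cd74 was at 3049, 3236 and 3377 CPM against 1480, 1984 and 3206, with lung mouse 224 inside the AT2 range. The summed markers of dendritic cells were at 6.10% of lung (2.06% without Zbtb46). Which cells Cd74 came from was not tested. Interferon-stimulated genes had a median of -3.43, with 16 of 20 lower. Collagens and elastic fibre genes had the lowest median, -5.60, with 15 of 24 lower; Col4a1, a basement membrane collagen, was an exception at 573 and 929 CPM on average, and the epithelial laminin Lamb3 was 3.93-fold higher. Of 17 genes of the alveolar transitional state, an intermediate between AT2 and AT1 cells, 8 were lower and none was higher. The shares over all genes were 22.1% and 3.17%. Krt8, which marks that state, was at 231 and 289 CPM on average with 36.0% of its words shared.

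Of 28 nuclear-encoded respiratory chain genes 2 were lower and none was higher. Of 13 mitochondrially encoded genes 6 were lower, among them mt-Co2, and 8 of the 13 share over 20% of their words or exon bases with another gene. Of 30 Mediator genes 1 was lower, Med10, with no AT2 count and 98.6% of its words shared. Med23, whose knockout the labels place in T cells, was at 42.7, 45.9 and 48.4 CPM in AT2 cells and 32.4, 21.3 and 36.4 in lung.

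**Figure D4:**
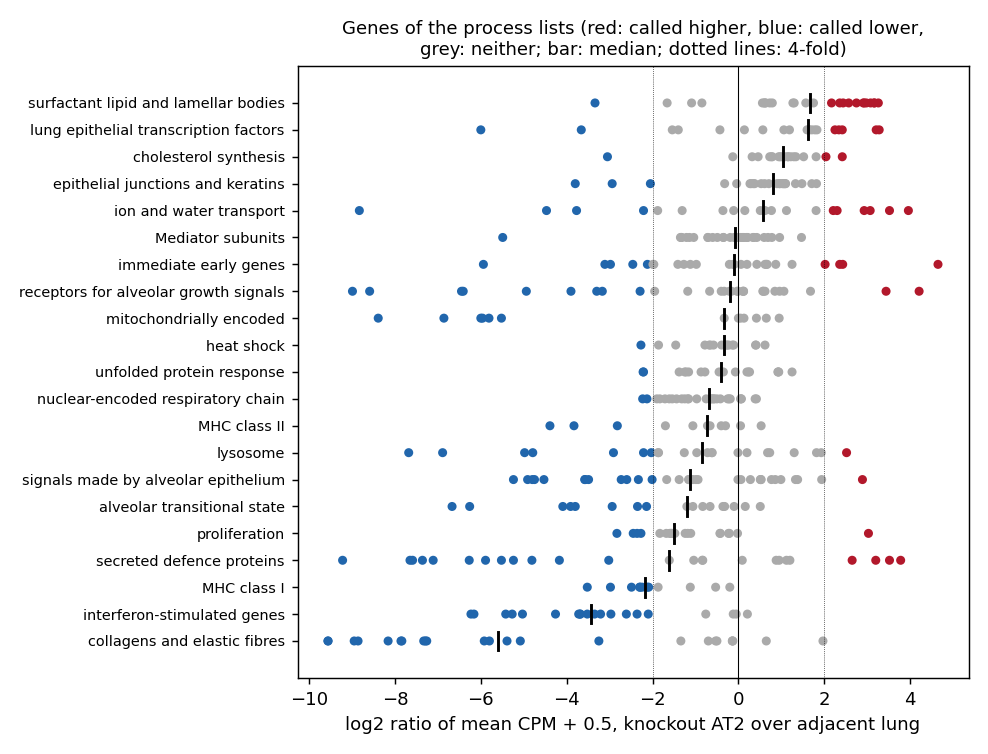
Log2 ratio of mean CPM + 0.5, knockout AT2 cells over adjacent lung, of each measured gene in 21 process lists ordered by their median. Points are genes, red if called higher and blue if called lower, bars are list medians and dotted lines mark 4-fold. Surfactant lipid genes have the highest median (1.66) and collagens and elastic fibres the lowest (-5.60).

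Genes depleted by the sort were led by blood, vessel and stroma genes. The haemoglobin gene Hba-a1 had 3 counts over the AT2 libraries and a lung mean of 3482 CPM; the ratio of counts pooled over libraries was 60401 with a 95% counting interval from 20668 to 292891. Hba-a2 (at least 39192-fold), Hbb-bt (at least 31758-fold) and Hbb-bs (18885-fold) were similar, and these genes share 59.4% to 91.0% of their words. The haem enzyme Alas2, with 15.6% shared, was 391-fold lower, at 0.237, 0.110 and 0.314 CPM against 49.4, 161 and 48.3. Among the other genes of lowest ratio were Sparcl1 (4422-fold), Cd93 (4002-fold), Calcrl (3502-fold), Mgp (3454-fold), Thbd (3303-fold) and Cdh5 (2824-fold), all known in vessels or in matrix-producing cells. Cdh5, the cadherin of endothelial junctions, was at 0.475, 0.165 and 0.251 CPM in AT2 cells and 1306, 554 and 656 in lung. Gpx3, a secreted glutathione peroxidase, was 1217-fold lower. Spp1, osteopontin, was at 0.297, 0 and 0.251 CPM against 124, 1612 and 2607, 7932-fold lower, with lung mouse 102 far below the other lungs.

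The depleted genes of highest level in lung were, besides Hba-a1, Hba-a2 and Hbb-bs, Scgb1a1, Chil3, Ftl1, Ctsd, CT010467.1, Psap and Gsn. Scgb1a1, the secretoglobin of club cells, was at 522, 457 and 419 CPM in AT2 cells and 31840.3, 34685 and 16686 in lung, 59.5-fold lower. Scgb1a1 stayed far above the limit that a count of 0 allows in each sort. Chil3, a chitinase-like protein of alveolar macrophages, was at 14.1, 6.89 and 4.71 CPM against 368, 7546 and 8264, with 44.8% of its words shared. The iron store gene Ftl1 (9.77-fold, 94.9% of words shared) and the unnamed locus CT010467.1 (52.7-fold, 66.7% shared) were lower, and so was the actin-severing protein Gsn (18.3-fold, none shared).

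Traces of other cells were summarised as the sum of CPM over each list in AT2 cells, as percent of the lung mean. Stroma and blood were the most depleted. All 17 fibroblast genes were lower, 6 of them with no AT2 count, and their sum was at 0.0789% of lung, from 0.0689% to 0.0893% over the 3 sorts. Pdgfra (at least 4302-fold) and Tcf21 (at least 1605-fold), both at 0 in the sort, mark lung fibroblasts. Smooth muscle and pericyte genes, all 16 lower, stood at 0.627%. Erythroid genes stood at 0.0141%, or 0.0282% without lung mouse 217, and at 1.32% over members that share few words. Lymphatic genes stood at 0.171%, or 0.0723% without AT2 mouse 175. Heart muscle genes stood at 7.69%, or 14.5% without lung mouse 102; Myh6, the alpha myosin heavy chain of heart, was at 132, 0.122 and 68.5 CPM in the lungs, so heart muscle genes differed widely between the lungs.

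Leukocyte genes were low but detectable. All 13 alveolar macrophage genes were lower, with sums of 22.3 to 31.1 CPM in the sorts and 757, 8876 and 9986 in the lungs, or 0.402% of lung (1.56% over members that share few words). Marco, a scavenger receptor of these cells, was 97.7-fold lower, and Mrc1, the mannose receptor, 115-fold. Neutrophil genes stood at 1.302%, but AT2 mouse 175 held 18.1 CPM against 4.02 and 5.83 in the others, and the value was 0.689% without it and 2.23% without lung mouse 217. B and plasma cell genes stood at 1.54%, or 3.28% without lung mouse 217, whose immunoglobulin gene Igkc was at 3542 CPM against 201 and 832 in the other lungs. Cytotoxic and NK cell genes stood at 3.40%, dendritic cell genes at 6.10%, and platelet genes at 6.54%. T cell genes, of the cells in which the labels place the knockout, stood at 6.62%, with 14 of 16 lower. Cd3e, a subunit of the T cell receptor complex, was at 0.237, 0.331 and 0.0627 CPM against 7.39, 12.2 and 7.82.

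In airway epithelium the list sums rested largely on 1 gene each, as given below. Ciliated cell genes stood at 7.78% of lung with 15 of 16 lower, and Foxj1, the master factor of cilia, was 136-fold lower. Club cell genes stood at 15.5% with 9 of 14 lower. AT1 genes were the least depleted of the alveolar neighbours, at 53.4% of lung and from 52.4% to 54.2% over the sorts, with none of 16 higher and 9 lower. Ager, a receptor used as an AT1 marker, was at 893, 911 and 915 CPM in AT2 cells and 887, 1439 and 976 in lung, so the groups overlapped. Emp2 (638 and 818 CPM on average) and Gprc5a (427 and 510) also stayed near the lung level, and Aqp5 was above it. Other AT1 genes were depleted like those of foreign cells: Igfbp2 was 800.3-fold lower, Spock2 291-fold, Hopx 68.9-fold, Pdpn 66.6-fold and Rtkn2 33.9-fold. Clic5, at 6.53-fold lower, lay between these, and the median member of the list was at 12.1% of lung.

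Several list sums rested on 1 gene. Esam, a junction protein known from endothelium, was at 127, 134 and 139 CPM in AT2 cells and 269, 275 and 193 in lung, and made up 90.4% of the endothelial sum in the sort. Endothelial genes stood at 2.20% of lung with it and at 0.219% without it, while Pecam1 (374-fold), Vwf (695-fold) and Gpihbp1 (at least 1717-fold) were lower. Cbr2, a carbonyl reductase listed for club cells, was at 3637, 3798 and 3659 CPM against 2092, 1094 and 1711, higher in the sort; without it the club sum was 5.08% of lung in place of 15.5%. Its list neighbour Aldh1a7 was 2.06-fold higher. Apoe, an apolipoprotein made by macrophages, overlapped between groups at 345 and 441 CPM on average, and without it the monocyte and interstitial macrophage sum was 7.08% of lung in place of 25.1%. Without Tppp3 (44.8 and 253 CPM on average) the ciliated sum was 3.58%, and without the T cell factor Bcl11b (3.62 and 6.62 CPM) the T cell sum was 3.87%. Cd79b, a B cell receptor subunit, was at 17.3, 19.7 and 21.4 CPM against 12.2, 34.6 and 40.0, and without it the B cell sum was 0.748%. Without the dendritic factor gene Zbtb46, which made up 75.4% of the sum in the sort, dendritic cell genes stood at 2.06%. The calcium channel Ryr2 overlapped between groups at 17.5 and 10.2 CPM on average, and without it heart genes stood at 0.849%.

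Nerve and Schwann cell genes stood at 38.3% of lung, and 7.20% without Mbp. Mbp, a myelin protein, was at 104, 107 and 107 CPM in AT2 cells and 55.9, 50.9 and 80.4 in lung, without overlap. Sox10, which defines Schwann cells, had no count in the 3 AT2 libraries. Genes of basal, neuroendocrine, fat, mast and cartilage cells were low in the sort, with mean sums from 0.0837 CPM (mast cells) to 6.37 CPM (neuroendocrine cells) and 1 to 4 genes of each list past the level filter. They were also low in lung, so that neuroendocrine genes stood at 31.7% of lung (their defining markers at 91.2%), cartilage genes at 31.4%, basal cell genes at 23.9%, fat cell genes at 11.2%, or 18.4% without lung mouse 102, and mast cell genes at 1.25%, or 2.70% without lung mouse 217, with counts in AT2 mouse 191 and none in the other sorts.

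**Figure D5:**
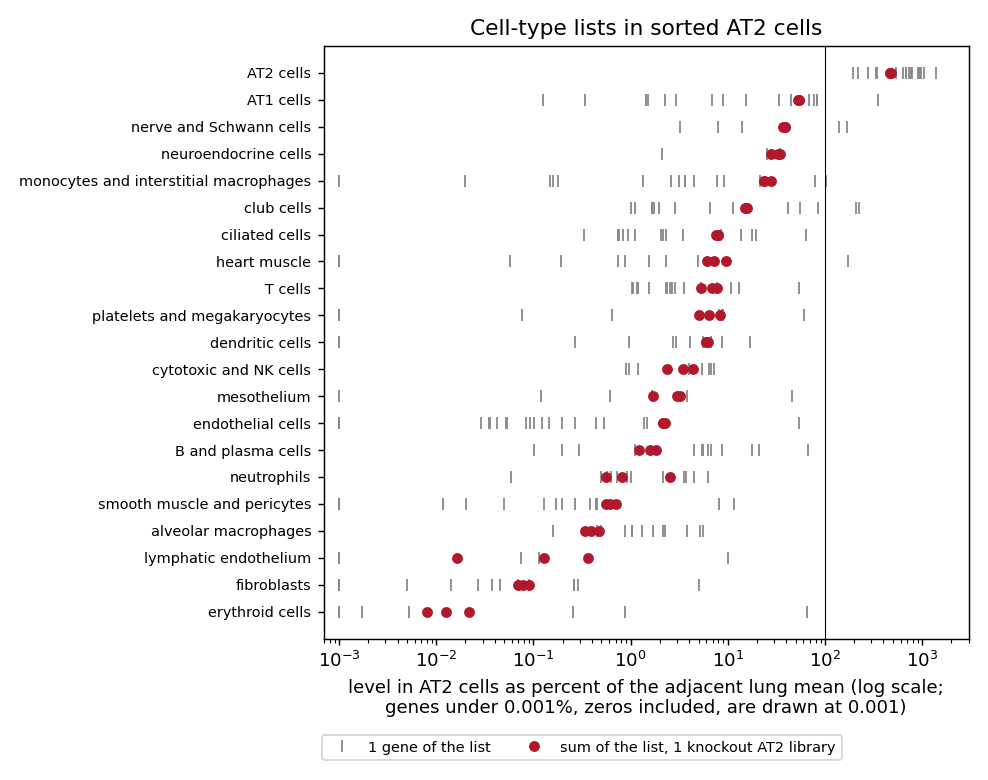
Level in knockout AT2 cells as percent of the adjacent lung mean (log scale) for 21 cell-type lists; grey ticks are genes, red points the list sum in each of the 3 AT2 libraries, and the line marks 100%. The AT2 list lies at 474%, AT1 genes at 53.4%, and fibroblast (0.0789%) and erythroid (0.0141%) sums lie lowest.

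Most traces were at similar sums in wild-type sorts, but with these in place of knockout the neutrophil sum was 0.835% of lung in place of 1.302% and the lymphatic sum 0.0797% in place of 0.171%, and mast cell genes had no count. Mean sums in knockout and wild-type AT2 cells were 2930 and 2909 CPM for AT1 genes, 5375 and 5276 for club genes, 148 and 139 for endothelial genes, and 2.78 and 3.23 for fibroblast genes. The genotype comparison was made within the AT2 table and without the lung libraries. In edgeR's quasi-likelihood test with Benjamini-Hochberg adjustment, 0% of the 14053 genes tested passed at 0.05 in either direction, with a smallest adjusted p of 0.447; 347 genes had an unadjusted p under 0.05, and DESeq2 called 1. Of the 525 genes higher in AT2 cells and the 1394 tested genes of the lower group none passed; both groups were chosen with the same knockout libraries, so this count is a description. In the same edgeR fit Sftpc had a log2 difference of knockout over wild type of -0.33 ± 0.20 (SE, adjusted p = 0.984), Abca3 0.16 ± 0.24 and Lamp3 -0.15 ± 0.19. With 3 mice per group this test does not show that the genotypes were alike.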

How the data were processed

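Poly-T captured RNA was made into libraries with a NEBNext Ultra kit, per the labels' protocols. The submitters' processing notes name FastQC, Trimmomatic 0.39, HISAT2, StringTie 1.3.3b, DESeq2 1.28.1 and build GRCm38/mm10. The authors deposited raw read counts per gene in 2 tables, one of AT2 libraries and one of lung libraries; no source used here gives the counting step, its strand setting or the annotation. Names, coordinates and exon lengths came from GENCODE vM21, and all columns of both tables were mapped to samples.

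CPM was computed on the shared genes; the SE of a log2 ratio is over the 3 libraries of each group, after adding 0.5 CPM. Higher and lower genes had a mean of at least 1 CPM in either group, a ratio of at least 4 and no overlap. A fold against 0 AT2 counts used a floor of 3 counts over the 3 libraries. Shared words are 31-base words of a gene's longest transcript found in the longest transcript of another gene. Genes with up to 20% of words and exon bases shared are called distinct. Knockout and wild-type AT2 cells were compared with edgeR 4.0.16 in R 4.3.3 (TMM, filterByExpr, quasi-likelihood, threshold 0.05), with DESeq2 1.42.0 as an alternative; scripts used Python 3.11.15, numpy 2.4.6, pandas 2.3.3, scipy 1.17.1 and matplotlib 3.10.9, and were tested on simulated data. The p-values measure the spread between these mice.

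The 46 lists (25 cell types, 21 processes) hold 720 gene names, 717 of them in both tables. Outside the lists the text names the 12 called genes of largest ratio in each direction with at least 20 CPM in the group where they are higher, and the 10 called genes of highest level in each direction. The comparison, its members and the lists were chosen with earlier results of these data known. A few genes that this rule or the lists name are not reported here. The tumour libraries were not analysed here. Scaling, pseudocount, level filter, fold, biotype, genotype and each library were varied.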

Additional observations from a re-analysis of the deposited data

How the results depend on the processing

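The counts of genes depend on the fold: at 2-fold 1834 genes were higher and 5688 lower, and at 8-fold 124 and 2390. The median log2 ratio of the AT2 list was 3.04 with TMM factors, 3.06 with DESeq2 size factors and 3.05 with totals that leave out the most abundant genes; these scalings moved the median of all genes by 0.20, 0.21 and 0.20. Ratios centred on genes of like exon length, chosen after seeing the data, gave 3.31 for the list, 948 higher and 2907 lower genes, so that 24.6% of calls were higher in place of 12.6%. Leaving out each library in turn gave 435 to 642 higher and 3635 to 3691 lower genes and a list median of 2.75 to 2.93. With wild-type sorts in place of knockout, 434 genes were higher and 3740 lower, of which 408 and 3553 were the same genes. Of the 114 genes for which every setting was run (the markers and the genes of largest ratio or level), none changed direction; other genes named in the text were not rerun. Aqp5 reached 4-fold under TMM, DESeq2 and abundance-free scaling, Sftpc did so with wild-type sorts (2.05), and Pgc lost it there (1.45). Exon-length centring took Sftpc (3.0), S100g (2.94), Napsa (2.34) and Aqp5 (2.35) past 4-fold and ended the calls of Tppp3 (-1.60) and Pf4 (-1.70). For knockout against wild type the count was 17 without a filter on low counts, 1 by DESeq2, and 0 to 1 when each library was left out (1 without wild-type mouse 176). No paired analysis was possible because the groups compared share no mouse numbers. Depth limits AT2 genes under 0.0589 CPM.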
